A study of Homo sapiens with 6 samples.

Results

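Ovarian carcinoma lineage and surface markers are the transcription factors and cell-surface or secreted proteins by which carcinomas of the tube and ovary are recognised in pathology and targeted in therapy. The 10 markers described here, of 58037 gene IDs counted, were chosen by name and matched through the symbol column of the merged count table. They are the lineage transcription factors PAX8, WT1, SOX17, MECOM and EMX2 and the surface or secreted proteins MUC16, MSLN, FOLR1, WFDC2 and MUC1. They were measured in OVCAR8, an established cell line from a human ovarian carcinoma, grown with or without added relaxin-2 (RLN2), a peptide hormone related to insulin. Cells were plated for 24 hours in medium with 10% serum and then kept without serum for 16 hours. The RLN2 group, with 3 libraries numbered 1, 2 and 3, then received 50 ng/mL of recombinant human hormone for 8 hours. The untreated group, with 3 libraries numbered 2, 3 and 4, received none. All libraries come from 1 cell line, and the labels do not say whether the replicates were separate cultures, so each p-value reflects only how these samples vary, and that variation may be technical.

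PAX8 and WT1 are developmental transcription factors of the reproductive and urinary tract that serous carcinomas keep, while SOX17 and MECOM are factors on which many of these tumours depend, and EMX2 is a homeobox gene of the developing urogenital system. On the surface, MUC16 carries the CA125 antigen measured in blood, and MSLN (mesothelin) is a membrane-anchored protein that binds MUC16. FOLR1 is a folate receptor used as an antibody-drug target, WFDC2 encodes the serum marker HE4, and MUC1 is a membrane mucin.

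The libraries held 17994116, 11939148 and 21926212 reads assigned to genes in RLN2 replicates 1, 2 and 3, against 22166723, 22426768 and 17175308 in untreated replicates 2, 3 and 4. A pair of libraries stood apart. Untreated replicate 2 had the steepest trend of expression on transcript GC content, with a slope of -0.487 on the log2 scale per 10 percentage points of GC, while the slopes were 0.0270, 0.253 and 0.191 in RLN2 replicates 1, 2 and 3 and -0.0362 and 0.0518 in untreated replicates 3 and 4. RLN2 replicate 2 had 27.0% of its reads mapped to several places, against 5.31% to 6.19% in the other libraries. Results of the tested markers are therefore given with and without these libraries, and those of other genes where stated. Of 16740 genes tested by edgeR's quasi-likelihood test, 0 passed a Benjamini-Hochberg adjusted p of 0.05, and the smallest adjusted p was 0.408. At an unadjusted p under 0.05 edgeR had 1811 genes, DESeq2 1677 and limma-voom 2058, and the adjusted test called 0 genes with each tool.

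The promoters of 4 markers are shown because they span the range of levels measured: PAX8, among the most abundant of the 10, WT1 and MUC1 at lower levels, and EMX2, without a read. Each is the 250 bases before the transcription start in RefSeq, build GRCh38.p14, read 5′ to 3′ on the gene's strand. PAX8 lies at chr2:113278922-113279171 on the minus strand, WT1 at chr11:32435540-32435789 on the minus strand, MUC1 at chr1:155192916-155193165 on the minus strand and EMX2 at chr10:117542496-117542745 on the plus strand. The GENCODE gene coordinates given with each gene start farther upstream than the RefSeq start for PAX8, WT1 and EMX2, and by 1 base for MUC1, so the EMX2 window lies inside the GENCODE gene and the PAX8 and WT1 windows overlap the start of theirs. Capitals mark matches on either strand to the GC box GGGCGG, the TATA box TATAAA, the CCAAT box CCAAT and the cAMP response element TGACGTCA, including overlapping matches.
PAX8: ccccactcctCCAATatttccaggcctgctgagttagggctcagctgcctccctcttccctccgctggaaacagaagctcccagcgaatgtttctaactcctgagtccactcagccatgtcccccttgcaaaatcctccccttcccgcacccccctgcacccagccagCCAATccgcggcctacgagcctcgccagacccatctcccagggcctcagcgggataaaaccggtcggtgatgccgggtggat
WT1: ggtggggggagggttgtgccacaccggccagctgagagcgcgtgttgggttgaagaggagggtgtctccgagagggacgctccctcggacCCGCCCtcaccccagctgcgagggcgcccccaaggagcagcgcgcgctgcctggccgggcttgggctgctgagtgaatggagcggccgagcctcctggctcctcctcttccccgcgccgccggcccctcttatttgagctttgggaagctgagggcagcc
MUC1: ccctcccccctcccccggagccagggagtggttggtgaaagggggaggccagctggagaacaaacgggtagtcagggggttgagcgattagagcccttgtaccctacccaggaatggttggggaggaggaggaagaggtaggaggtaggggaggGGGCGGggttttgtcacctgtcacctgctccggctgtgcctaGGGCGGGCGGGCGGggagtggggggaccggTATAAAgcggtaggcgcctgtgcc
EMX2: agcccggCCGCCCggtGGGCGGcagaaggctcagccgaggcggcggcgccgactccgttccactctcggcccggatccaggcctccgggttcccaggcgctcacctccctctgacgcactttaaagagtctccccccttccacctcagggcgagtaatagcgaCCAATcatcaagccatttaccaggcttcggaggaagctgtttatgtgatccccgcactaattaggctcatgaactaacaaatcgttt

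The PAX8 window held 2 CCAAT boxes and 11 CG dinucleotides. The WT1 window had 1 GC box and 19 CG dinucleotides, and the EMX2 window had 2 GC boxes, 1 CCAAT box and 20 CG dinucleotides. The MUC1 window held 4 GC boxes, some of them overlapping, 1 TATA box and 11 CG dinucleotides. Of 35116 windows of the same length before RefSeq genes, 42.6% had a GC box, 32.0% a CCAAT box, 10.7% a TATA box and 1.65% the full cAMP response element, and the median window had 11 CG dinucleotides with quartiles of 3 and 23. Windows were available for 7 of the 10 markers, 14 windows in all, and the full element TGACGTCA was in none of them. The shorter form TGACG, which was not capitalised, was in 21.2% of all windows and in the EMX2 window printed here. EMX2 without a read and WT1 with reads thus had similar counts of CG dinucleotides, and these letters give no measure of promoter use in these cells.

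The 10 markers split into 5 with enough reads to test and 5 without. PAX8, WT1, MSLN, FOLR1 and MUC1 were tested. SOX17, MECOM, EMX2, MUC16 and WFDC2 fell below the filter on low counts, and 4 of these had fewer than 10 reads in all 6 libraries together. On a scale of CPM (read counts scaled to library size) divided by kilobases of merged exons, which allows levels of different genes to be compared, MSLN stood first at 11.4, followed by PAX8 at 8.03, FOLR1 at 1.5, WT1 at 0.770, MUC1 at 0.377 and WFDC2 at 0.266. MSLN lay above 80.6% of 19726 protein-coding genes and PAX8 above 74.5%. The library values of MSLN, 3.34 to 17.0 CPM per kb, spanned those of PAX8, 5.29 to 9.55, so the order of these 2 was not separated by their spread. It turned with the length used: per kilobase of the longest transcript PAX8 had 14.3 and MSLN 12.1 CPM per kb, and WFDC2 with 0.449 stood above MUC1 with 0.427. FOLR1, at 1.12 to 1.74 CPM per kb, did not overlap WT1, at 0.635 to 1.01, and WT1 did not overlap MUC1, at 0.200 to 0.609. MUC1 overlapped WFDC2, at 0.130 to 0.443 CPM per kb. These are bulk measurements, in which fewer cells expressing a gene and less RNA per cell cannot be told apart.

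**Figure D1:**
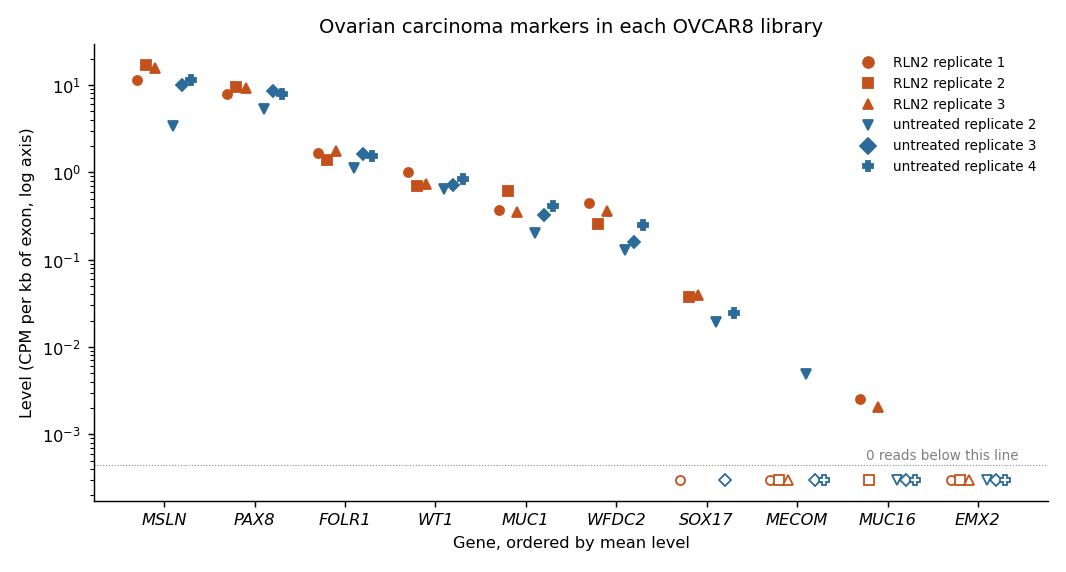
Level of each marker in each library in CPM per kb of exon on a log axis, ordered by mean level, with RLN2 libraries left of untreated libraries and libraries with 0 reads as open symbols below the line. MSLN and PAX8 lie highest, FOLR1, WT1, MUC1 and WFDC2 lie between 0.130 and 1.74, and SOX17, MECOM, MUC16 and EMX2 have libraries with 0 reads.

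Of the 5 tested markers, 0 passed the adjusted p of 0.05, and the share of all tested genes that passed was also 0%. All 5 had a fitted log2 fold change above 0, against 47.8% of all tested genes, and in all 5 the RLN2 and untreated libraries overlapped. At an unadjusted p under 0.05 there were 0 of the 5, against 6.3% of tested genes with higher and 4.52% with lower RLN2 values, or 10.8% in either direction. That count holds for the fit described: over 22 alternatives each, MSLN had an unadjusted p under 0.05 in 9 and PAX8 in 3, while WT1, FOLR1 and MUC1 had none. The unadjusted p of MSLN was 0.00404 without untreated replicate 2 and 0.0402 with GC and length offsets by edgeR, and 0.0390 by limma-voom. Under these settings 2094 of 16794, 1744 of 16740 and 2058 of 16740 tested genes had an unadjusted p under 0.05. That number also moved with other settings, to 2696 of 16740 with the replicate number as a block and 3602 of 17315 without untreated replicate 4. Groups that did not overlap made up 10.8% of tested genes in the direction of higher RLN2 values and 10.5% in the other. Each of the 5 had its lowest value in untreated replicate 2, which was the lowest library for 37.1% of all tested genes. The 5 markers had transcript GC contents of 55.3% to 64.9%, above the median of 48.7% over tested genes. Values without that library, and values with offsets that remove each library's trend on GC content and length, stand beside each of these 5 genes.

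Among the lineage factors, PAX8 was the most abundant. PAX8 (ENSG00000125618, chromosome 2, 113215997 to 113278950, minus strand, GRCh38) is a paired-box factor of Müllerian epithelium. It had 57.8, 70.7 and 68.5 CPM in RLN2 replicates 1, 2 and 3, against 39.2, 62.6 and 57.8 CPM in untreated replicates 2, 3 and 4. RLN2 replicates 2 and 3 were highest, untreated replicate 2 was lowest, and the groups overlapped through RLN2 replicate 1 and untreated replicate 3. The mean was 65.7 ± 6.88 CPM in RLN2 libraries and 53.2 ± 12.4 CPM in untreated libraries (SD, n = 3 each). The log2 fold change was 0.30 ± 0.17 (SE), with a 95% interval of -0.09 to 0.70 and an adjusted p of 0.413 by edgeR. It was 0.12 without untreated replicate 2, 0.25 without RLN2 replicate 2 and -0.06 with GC and length offsets, so its direction turned under the last setting.

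WT1 (ENSG00000184937, chromosome 11, 32387775 to 32435630, minus strand), a zinc-finger factor of the urogenital ridge and mesothelium used as a marker of serous carcinoma, was present at low levels. It had 75, 33 and 66 reads in RLN2 replicates 1, 2 and 3, against 58, 67 and 59 reads in untreated replicates 2, 3 and 4. On the CPM scale these were 4.17, 2.87 and 3.00 in RLN2 libraries, against 2.61, 2.94 and 3.40 in untreated libraries. RLN2 replicate 1 was highest, and the other libraries of both groups lay within one range. The log2 fold change was 0.18 ± 0.20 (SE), with a 95% interval of -0.29 to 0.65 and an adjusted p of 0.623 by edgeR. It was 0.10 without untreated replicate 2, 0.26 without RLN2 replicate 2, -0.02 without RLN2 replicate 1 and -0.01 with GC and length offsets.

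The antisense partners of these factors gave few reads. WT1-AS, transcribed from the opposite strand at WT1, had 135 reads in all, with 1.29 ± 0.121 CPM in RLN2 libraries and 1.10 ± 0.187 CPM in untreated libraries (SD, n = 3 each). PAX8-AS1 had 71 reads, with 0.486 ± 0.0842 CPM in RLN2 libraries and 0.719 ± 0.328 CPM in untreated libraries. Neither passed the test, and EMX2OS and MECOM-AS1 had 0 reads. The library kit keeps the strand, and PAX8 itself had 27 reads on its opposite strand against 6657 on its own.

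The other 3 lineage factors were at the edge of detection. SOX17 (ENSG00000164736), an endoderm and Müllerian SOX factor, had 0, 1 and 2 reads in RLN2 replicates 1, 2 and 3, against 1, 0 and 1 reads in untreated replicates 2, 3 and 4. MECOM (ENSG00000085276, chromosome 3, 169083499 to 169663618, minus strand), a zinc-finger regulator often amplified in serous carcinoma, had 0 reads in the RLN2 libraries and 1 read in untreated replicate 2. EMX2 (ENSG00000170370, chromosome 10, 117542444 to 117549546, plus strand) had 0 reads in all 6 libraries. By the floor of 3 counts, the absence of EMX2 reads allows up to 0.0583 CPM over the RLN2 libraries, 0.0481 CPM over the untreated libraries and 0.0264 CPM over all, and such floors and the intervals on pooled counts cover counting error only. No difference between the groups was detectable for these factors at this depth.

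MSLN had the largest fitted difference of the 5 tested markers and the largest standard error among them. MSLN (ENSG00000102854, chromosome 16, 760762 to 768865, plus strand) had 28.8, 43.5 and 40.4 CPM in RLN2 replicates 1, 2 and 3, against 8.55, 25.4 and 28.9 CPM in untreated replicates 2, 3 and 4. RLN2 replicates 2 and 3 were highest, untreated replicate 2 was far below every other library, and RLN2 replicate 1 and untreated replicate 4 met at nearly the same value. The mean was 37.5 ± 7.75 CPM in RLN2 libraries and 20.9 ± 10.9 CPM in untreated libraries (SD, n = 3 each). The log2 fold change of 0.84 ± 0.39 (SE) equals a ratio of 1.80, with a 95% interval of 0.961 to 3.36. The unadjusted p was 0.0630 and the adjusted p 0.408 by edgeR, so the difference did not pass the test.

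The error of MSLN was large for its abundance: its standard error exceeded that of 99.5% of 2265 genes of similar abundance, whose median was 0.116. Its transcripts have 64.9% GC, more than 97.6% of tested genes. The 6 libraries fell in the same order for MSLN as for the GC slope, with untreated replicate 2 lowest and RLN2 replicate 2 highest in both. Its log2 fold change was 0.46 without untreated replicate 2, 0.73 without RLN2 replicate 2, 0.37 without both, and 0.28 with GC and length offsets, where the adjusted p by edgeR was 0.468. Over the 22 alternatives it stayed above 0, and its adjusted p ran from 0.0592 to 0.902. The lowest was that of edgeR with no filter on low counts, where the standard error of MSLN was 0.22 and 120 genes were called.

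**Figure D2:**
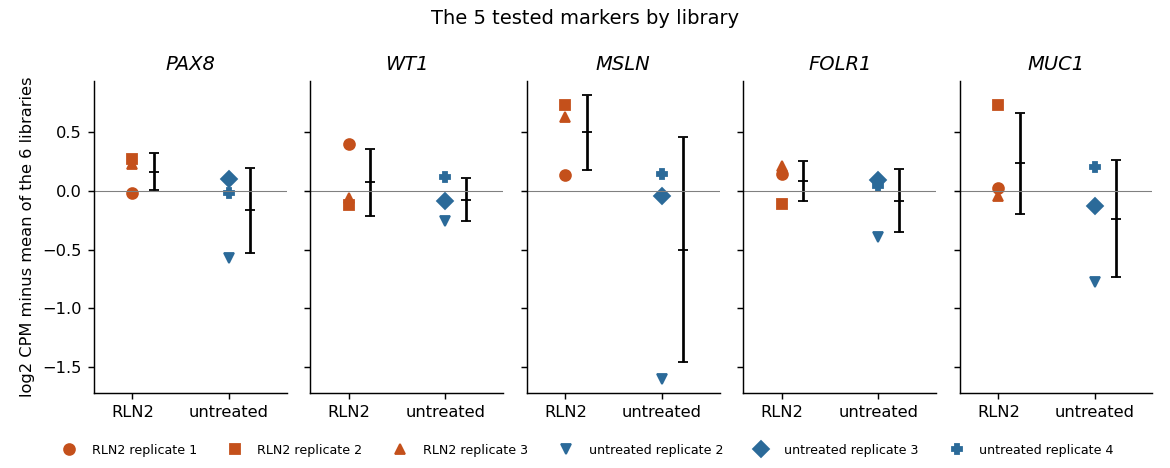
Log2 CPM of the 5 tested markers in each library, centred on the mean of the 6 libraries, with RLN2 left of untreated and bars for the group mean ± SD (n = 3 each). Untreated replicate 2 is the lowest library for each of the 5, by -1.60 for MSLN and by -0.25 for WT1.

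**Figure D3:**
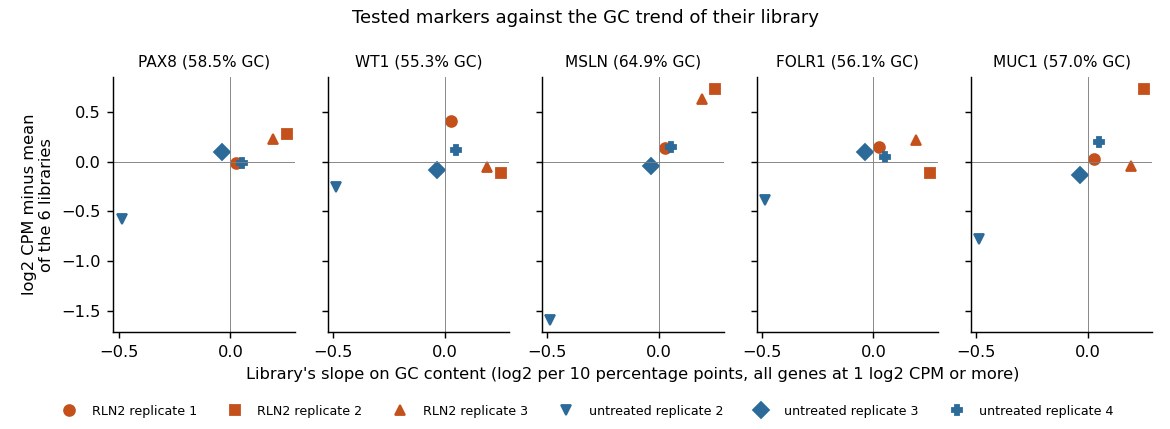
Centred log2 CPM of each tested marker on the vertical axis against each library's slope on GC content, in log2 per 10 percentage points, on the horizontal axis; colours and symbols give group and replicate. Untreated replicate 2, with a slope of -0.487, lies at the lower left in each panel, and the largest vertical range is that of MSLN.

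FOLR1 (ENSG00000110195, chromosome 11, 72189558 to 72196323, plus strand), the folate receptor alpha, had 49, 26 and 63 reads in RLN2 replicates 1, 2 and 3, against 41, 60 and 44 reads in untreated replicates 2, 3 and 4. On the CPM scale these were 2.73, 2.27 and 2.86 in RLN2 libraries, against 1.85, 2.63 and 2.54 in untreated libraries. RLN2 replicate 3 was highest and untreated replicate 2 lowest, and RLN2 replicate 2 lay below untreated replicates 3 and 4. The log2 fold change was 0.18 ± 0.20 (SE), with a 95% interval of -0.28 to 0.65 and an adjusted p of 0.617 by edgeR. It was 0.04 without untreated replicate 2, 0.26 without RLN2 replicate 2 and -0.04 with GC and length offsets.

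MUC1 (ENSG00000185499, chromosome 1, 155185824 to 155192916, minus strand), the membrane mucin, had 31, 33 and 36 reads in RLN2 replicates 1, 2 and 3, against 21, 35 and 34 reads in untreated replicates 2, 3 and 4. These were 1.73, 2.87 and 1.64 CPM in RLN2 libraries, against 0.945, 1.54 and 1.96 CPM in untreated libraries. RLN2 replicate 2 alone was high, untreated replicate 2 alone was low, and the other 4 libraries lay together. The log2 fold change was 0.46 ± 0.33 (SE), with a 95% interval of -0.30 to 1.21 and an adjusted p of 0.467 by edgeR. It was 0.20 without untreated replicate 2, 0.20 without RLN2 replicate 2, -0.03 without both and 0.17 with GC and length offsets.

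The serum markers CA125 and HE4 come from genes that were nearly silent or low in these cells. MUC16 (ENSG00000181143, chromosome 19, 8848844 to 8981342, minus strand), whose merged exons span 43830 bases, had 2, 0 and 2 reads in RLN2 replicates 1, 2 and 3, against 0 reads in each untreated library. Pooled, this is 0.0777 CPM in RLN2 libraries (exact 95% interval 0.0212 to 0.199) and 0 CPM in untreated libraries, where the floor of 3 counts allows up to 0.0481, within the interval of the RLN2 libraries. WFDC2 (ENSG00000101443, chromosome 20, 45469706 to 45481532, plus strand) had 11, 4 and 11 reads in RLN2 replicates 1, 2 and 3, against 4, 5 and 6 reads in untreated replicates 2, 3 and 4. On the CPM scale these were 0.612, 0.348 and 0.50 in RLN2 libraries, against 0.180, 0.219 and 0.346 in untreated libraries. The groups did not overlap, but by a margin of less than 1 read between RLN2 replicate 2 and untreated replicate 4. Pooled, WFDC2 had 0.505 CPM in RLN2 libraries (exact 95% interval 0.330 to 0.740) and 0.241 CPM in untreated libraries (0.135 to 0.397), and it was below the filter, so no test was made in the fit described. With no filter on low counts, its adjusted p was 0.451 by edgeR.

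**Figure D4:**
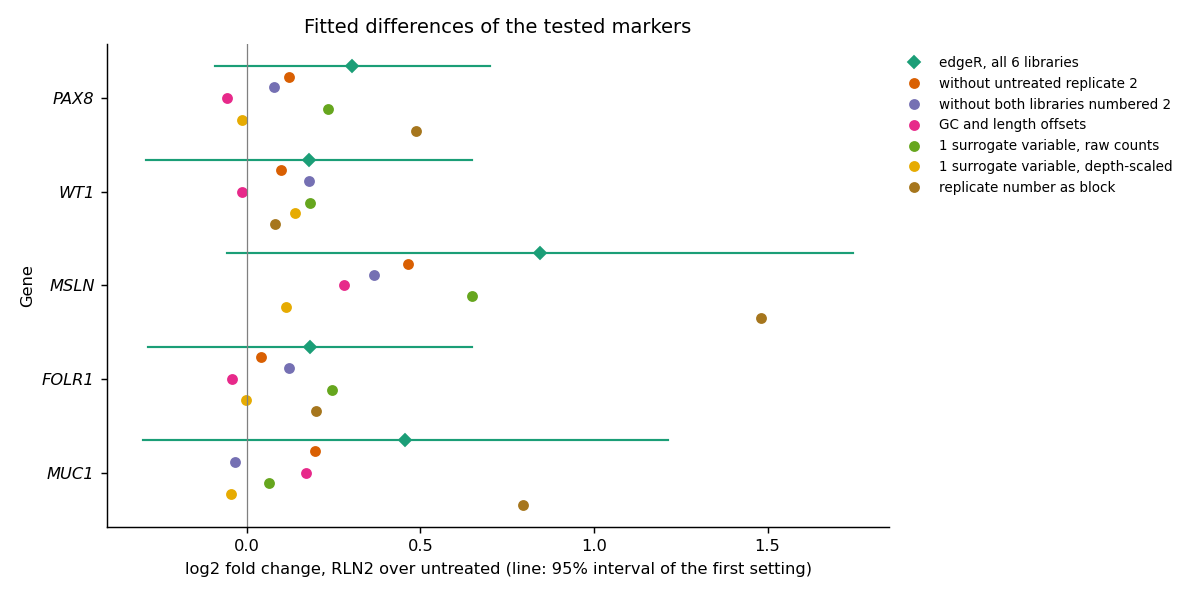
Log2 fold change (RLN2 over untreated) of each tested marker under 7 settings; the diamond and line give the edgeR fit of all 6 libraries with its 95% interval, and the dots give alternatives. Each line crosses 0, the GC and length offsets put PAX8, WT1 and FOLR1 just below 0, and MSLN stays above 0 in the settings drawn.

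The genes whose pattern over the 6 libraries was most like that of each marker were found among 13029 genes by the root mean square distance of centred log2 CPM. They were KLHDC4 (0.0179) and MAP3K3 (0.0273) for PAX8, and MED26 (0.0624) and HOXC8 (0.0775) for WT1. For MSLN they were GAA (0.0479), the lysosomal alpha-glucosidase, and C12orf57 (0.0485). For FOLR1 they were NECAP2 (0.0459) and GARNL3 (0.0491), while MUC1 was below the abundance minimum for this search.

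Of 16 other genes of the Müllerian and tubal program, 9 were tested, 2 had a fitted difference above 0, 7 below 0, and 0 passed the test. The median log2 fold change was -0.10, against -0.01 over all tested genes. PGR, the progesterone receptor and the most abundant of the list per length, had 35.0, 39.0 and 35.3 CPM in RLN2 replicates 1, 2 and 3, against 43.5, 40.7 and 36.7 CPM in untreated replicates 2, 3 and 4, and the groups overlapped. TP73, a p53 family member of multiciliated cells, had 5.38 ± 0.925 CPM in RLN2 libraries and 3.42 ± 0.730 CPM in untreated libraries (SD, n = 3 each), and the groups did not overlap. Its log2 fold change was 0.65 ± 0.21 (SE), 0.47 without untreated replicate 2 and 0.07 with GC and length offsets. PAX2, ESR1, FOXJ1 and WNT7A had 18, 7, 2 and 1 reads in all. Among 15 paralogs of the markers, PRDM16, a relative of MECOM, and SOX7, a relative of SOX17, were the 2 tested. PRDM16 had a log2 fold change of 0.53, which was 0.07 with GC and length offsets, 0.35 without untreated replicate 2 and 0.15 when RLN2 replicate 2 was left out as well. SOX7 had one of -0.03, which was 0.05 without untreated replicate 2.

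Of 31 other surface and secreted antigens of ovarian carcinoma, 14 were tested, 8 with a fitted difference above 0 and 6 below 0, and 0 passed the test. The median log2 fold change was 0.30. With GC and length offsets it was -0.02, with 5 above 0 and 9 below. Without untreated replicate 2 it was 0.15, with 10 above 0 and 4 below, and without both libraries numbered 2 it was 0.14, with 11 and 3. F3, tissue factor and the most abundant of the list per length, had 660, 632 and 649 CPM in RLN2 replicates 1, 2 and 3, against 738, 744 and 706 CPM in untreated replicates 2, 3 and 4. All RLN2 libraries lay below all untreated libraries. The log2 fold change was -0.17 ± 0.06 (SE), at an adjusted p of 0.408 by edgeR. With GC and length offsets it was -0.07, and without untreated replicate 2 it was -0.16. AXL, a receptor tyrosine kinase, had 499, 551 and 538 CPM in RLN2 replicates 1, 2 and 3, against 380, 459 and 495 CPM in untreated replicates 2, 3 and 4. Its groups did not overlap, and its log2 fold change was 0.25, or -0.17 with GC and length offsets. The fold change of AXL was 0.15 without untreated replicate 2 and 0.13 without both libraries numbered 2.

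Among 17 genes that glycosylate, shed or bind mucins, 14 were tested, 5 with a fitted difference above 0 and 9 below 0, and 0 passed the test. The split turned to 9 above and 5 below with GC and length offsets, to 8 and 6 without untreated replicate 2, and to 10 and 4 without both libraries numbered 2. GALNT2, a transferase that starts O-glycosylation, had 94.6 ± 4.53 CPM in RLN2 libraries and 74.9 ± 9.67 CPM in untreated libraries (SD, n = 3 each). Its paralog GALNT1 had 136 ± 7.92 CPM in RLN2 libraries and 157 ± 17.2 CPM in untreated libraries. The groups of both genes did not overlap, with log2 fold changes of 0.34 for GALNT2 and -0.20 for GALNT1, and neither passed the test. With GC and length offsets these were 0.13 and -0.07, and without untreated replicate 2 they were 0.25 and -0.11. LGALS1, a galectin, had a log2 fold change of 0.48, and 0.15 with GC and length offsets. For LGALS1 this was 0.21 without untreated replicate 2 and 0.17 without both libraries numbered 2.

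All 8 genes of folate uptake and use beside FOLR1 were tested, 7 with a fitted difference above 0 and 1 below 0, and 0 passed the test. The median log2 fold change was 0.26, and 0.03 with GC and length offsets, where 7 stayed above 0. It was 0.15 without untreated replicate 2 and 0.09 without both libraries numbered 2, with all 8 above 0 in each. SHMT1, a serine hydroxymethyltransferase, had 91.0, 99.3 and 99 CPM in RLN2 replicates 1, 2 and 3, against 77.7, 85.3 and 86.5 CPM in untreated replicates 2, 3 and 4. These groups did not overlap, with a log2 fold change of 0.21, or 0.04 with the offsets. For SHMT1 this was 0.17 without untreated replicate 2 and 0.15 without both libraries numbered 2. SHMT2 had a log2 fold change of 0.35, or 0.02 with the offsets, 0.14 without untreated replicate 2 and 0.10 without both libraries numbered 2. GGH, a folate hydrolase, had one of -0.10, and its direction turned to 0.05 with the offsets and 0.01 without untreated replicate 2.

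Markers of cell type were read to check the label of an epithelial carcinoma line. Of 6 epithelial markers, KRT8, KRT18, KRT7 and EPCAM were abundant, CDH1 was low at 0.987 ± 0.277 CPM in RLN2 libraries and 0.910 ± 0.460 CPM in untreated libraries (SD, n = 3 each), and KRT19 had 4 reads in all. All 6 mesenchymal markers were tested, with VIM at 1774 ± 46.5 CPM in RLN2 libraries and 1702 ± 14.3 CPM in untreated libraries, and ZEB1, a repressor of epithelial genes, at 55.4 ± 4.11 CPM in RLN2 libraries and 58.7 ± 3.76 CPM in untreated libraries. The summed level of the epithelial list ran from 2275 to 2761 CPM in RLN2 libraries and from 1449 to 2476 CPM in untreated libraries. The 1449 CPM was that of untreated replicate 2, while untreated replicates 3 and 4 had 2374 and 2476 CPM, above RLN2 replicate 1. The mesenchymal list ran from 3063 to 3142 CPM in RLN2 libraries and from 2922 to 3088 CPM in untreated libraries. Mesothelial markers matter here because mesothelium expresses MSLN and WT1. Of 6 such markers, BNC1 had 59.6 ± 2.07 CPM in RLN2 libraries and 60.7 ± 0.908 CPM in untreated libraries. PDPN had 9.36 ± 0.208 CPM in RLN2 libraries and 8.25 ± 0.0586 CPM in untreated libraries. Its groups did not overlap, at an adjusted p of 0.437 by edgeR. CALB2 was low, at 0.775 ± 0.299 CPM in RLN2 libraries and 0.747 ± 0.117 CPM in untreated libraries. UPK3B had 19 reads in all, and ITLN1 had 0 reads. LRRN4 had a log2 fold change of 0.56, its groups did not overlap, and its adjusted p was 0.408 by edgeR. The fold change was -0.08 with GC and length offsets, 0.54 without untreated replicate 2 and 0.57 without both libraries numbered 2. Of the 4 tested mesothelial markers, 2 did not overlap, with higher RLN2 values, against 10.8% of all tested genes, and 0 passed the test. The summed mesothelial level, most of it from BNC1, ran from 71.5 to 74.3 CPM in RLN2 libraries and from 71.2 to 72.7 CPM in untreated libraries.

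The 5 leukocyte markers summed to 0.0455 to 0.261 CPM in RLN2 libraries and 0.0439 to 0.231 CPM in untreated libraries, with CD3E and MS4A1 at 0 reads. The 5 fibroblast markers summed to 1.31 to 2.34 CPM in RLN2 libraries and 1.40 to 2.59 CPM in untreated libraries, with DCN and FAP at 0 reads and LUM, a matrix proteoglycan, at 1.32 ± 0.484 CPM in RLN2 libraries and 1.36 ± 0.154 CPM in untreated libraries (SD, n = 3 each). The 5 endothelial markers summed to 2.18 to 3.14 CPM in RLN2 libraries and 1.80 to 2.42 CPM in untreated libraries. VWF, von Willebrand factor, had a log2 fold change of 0.70, or 0.59 with GC and length offsets. Its log2 fold change was 0.39 without untreated replicate 2 and 0.16 without both libraries numbered 2. KDR, a VEGF receptor, had one of -0.10, and neither gene passed the test. Among 6 granulosa markers, FOXL2, an ovarian stromal and granulosa factor, had 2.06, 3.57 and 2.68 CPM in RLN2 replicates 1, 2 and 3, against 0.945, 1.18 and 1.56 CPM in untreated replicates 2, 3 and 4. The groups did not overlap, and the log2 fold change was 1.16 ± 0.27 (SE), at an adjusted p of 0.408 by edgeR. It was 0.52 with GC and length offsets, 0.99 without untreated replicate 2 and 0.83 without both libraries numbered 2. AMH had 82 reads in all, and its groups overlapped. INHA, NR5A1 and CYP19A1 had 11, 7 and 6 reads in all, and FSHR had 0 reads.

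**Figure D5:**
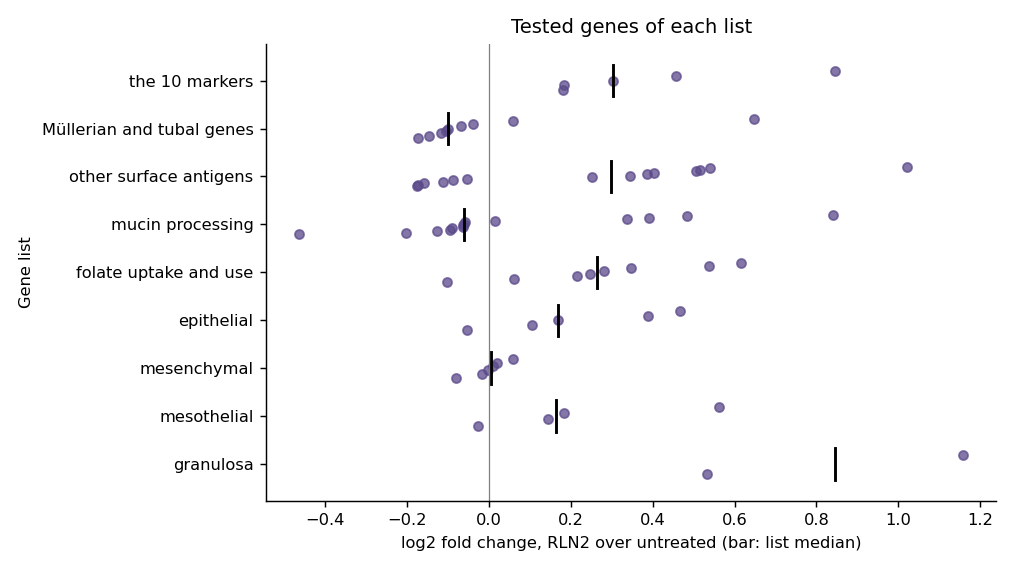
Log2 fold change (RLN2 over untreated) of each tested gene, 1 dot a gene, with a bar at each list's median; the lists run down the vertical axis. The 5 tested markers lie between 0.18 and 0.84, the Müllerian and tubal genes have a median of -0.10, and the mesenchymal genes lie close to 0.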

How the data were processed

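RNA of OVCAR8 cells was sequenced from stranded total RNA libraries, 300000 cells per well, per the labels' protocols. The authors deposited raw counts of reads per gene, made with STAR on hg38 per the submitters' processing notes; no source used here gives the STAR version or the annotation release. The reverse-strand column was used; its gene reads exceeded those of the forward column 17.8 to 19.8 times. A merged count table, with 28381 lines, equalled it at all 24635 shared gene IDs. Reads that map to several places (5.31% to 27.0%), to several genes (2.36% to 4.18%), to no gene (17.5% to 32.0%) or nowhere (6.73% to 17.4%) stayed out of library sizes and tests, which undercounts genes that have near-identical copies. All pairs of libraries differed by more than sampling noise; the closest, RLN2 replicate 1 and untreated replicate 4, had a chi-square per degree of freedom of 2.63.

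Genes were filtered by edgeR's default, scaled by TMM and compared by the two-sided quasi-likelihood F test of edgeR 4.0.16 (Benjamini-Hochberg over all tested genes, adjusted p under 0.05) in R 4.3.3. All 6 libraries entered 1 fit with treatment as its only term. The log2 fold changes had a median standard error of 0.16 over all tested genes. CPM use TMM-scaled library sizes, and lengths and GC content come from GENCODE 29 on GRCh38, which 57433 of 58037 gene IDs matched. Promoters come from RefSeq GRCh38.p14. Alternatives were DESeq2 1.42.0, limma-voom (limma 3.58.1), other scalings and filters, unstranded and merged counts, an adjusted p under 0.10, leaving out libraries, the replicate number as a block, offsets for each library's smooth trend on GC content and log length, and 1 surrogate variable from sva 3.50.0. The surrogate variable was first taken from raw counts, which are not scaled for depth. After its values had been seen, and seen to differ from an earlier analysis of these data, a version from depth-scaled log2 CPM was added; both are given. The markers and gene lists were chosen with earlier results of these data known. All 10 markers are named. Of each other list, the rule names the tested gene of smallest p in each direction and that of highest level per length; other list genes were chosen after their values were seen. Python 3.11.15, pandas 2.3.3 and matplotlib 3.10.9 were used for tables and figures.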

Additional observations from a re-analysis of the deposited data

How the results depend on the processing

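The number of markers past the threshold was 0 under every alternative run, and MSLN kept its direction in all 22, between 0.11 and 1.48 on the log2 scale. GC and length offsets gave -0.056 for PAX8, -0.013 for WT1 and -0.043 for FOLR1, and with the replicate block -0.10, -0.23 and -0.15. With 1 surrogate variable from depth-scaled values, an alternative added after the raw-count version had been seen, the log2 fold change was -0.014 for PAX8, -0.0012 for FOLR1, -0.044 for MUC1, 0.14 for WT1 and 0.11 for MSLN. With the surrogate variable from raw counts, all 5 stayed above 0, at 0.23 for PAX8, 0.24 for FOLR1, 0.06 for MUC1, 0.18 for WT1 and 0.65 for MSLN. That variable correlated at -0.993 with the log of the library total, against 0.553 for the depth-scaled version. It thus followed sequencing depth, and these 5 values are no check on other differences between the libraries. Leaving out both libraries numbered 2 gave -0.034 for MUC1. Leaving out each library in turn gave 0.12 to 0.44 for PAX8, -0.017 to 0.28 for WT1, 0.46 to 1.14 for MSLN, 0.04 to 0.28 for FOLR1 and 0.20 to 0.69 for MUC1. The cause of these changes was not tested.

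The number of genes called, 0 in the fit described, was 120 with no filter on low counts, 1 with the replicate block, 258 with offsets and block, 14 with the surrogate variable from depth-scaled values, 3 without untreated replicate 2 and 3 without both libraries numbered 2. The replicate block gave 0.49 for PAX8 and 1.48 for MSLN (adjusted p 0.169 by edgeR), but the groups share only numbers 2 and 3. The deviations of the libraries with equal numbers correlated at -0.54 for number 2 and 0.28 for number 3 over 13029 genes. Between unlike numbers it ran from -0.68, for RLN2 replicate 1 and untreated replicate 4, to 0.72, for RLN2 replicate 1 and untreated replicate 2. The values for equal numbers are of opposite sign and lie within that range, so they do not decide whether the numbers pair the samples. With the longest transcript as the length, the levels in CPM per kb were 14.3 for PAX8, 12.1 for MSLN, 1.86 for FOLR1, 1.01 for WT1, 0.449 for WFDC2 and 0.427 for MUC1, which turns the order of the first pair and of the last. SOX17, MECOM, EMX2, MUC16 and WFDC2 were below the filter on low counts at this depth. For EMX2, with 0 reads, no expression and expression under the floor cannot be told apart.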
